A study of Mus musculus with 36 samples.

Results

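The genes described here carry glucose into the cell, break it down to pyruvate and lactate, pass pyruvate to the mitochondrion or hold it back, and store glucose as glycogen. They were 39 genes chosen by symbol, and 36 of them were measured, out of 19938 genes on the arrays that could be named by a single symbol. Gpi1, Pfkfb1 and Eno1 were not analysed here, because no probe set named them alone. Each gene was read from its probe set with the highest mean, and all values are log2 expression as deposited by the authors.

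Glycolysis turns glucose into pyruvate in the cytosol and yields a little ATP without oxygen. Pyruvate then either becomes lactate, which leaves the cell, or enters the mitochondrion through the pyruvate dehydrogenase complex, which a family of kinases switches off. In the fetal gonad, supporting cells are the somatic cells from which testicular Sertoli and ovarian granulosa cells arise, and in the adult testis Sertoli cells are known for making lactate that germ cells use.

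The series compared cells sorted by fluorescence from XX and XY mouse gonads at 11.5, 12.5 and 13.5 days post coitum (dpc). Germ cells were collected through an Oct4 reporter in progeny of C57BL/6NJ on mixed background. Supporting cells of XX gonads at every stage, and of XY gonads at 11.5 dpc, came from the line Tg(Sry-EGFP)92Ei, as progeny of CD-1, and XY supporting cells at 12.5 and 13.5 dpc from the line labelled Tg(Sox9-cre/ERT2)1Msan/J, which were progeny of C57BL/6 with Sox9 as the gene reported. Gonads of each sex were pooled before sorting. There were 3 arrays in each of the 12 groups of cell type, sex and stage. The array titled replicate 3 of germ XX at 12.5 dpc was left out, so that group had 2 arrays and 35 arrays were used.

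The design sets 3 limits on what a difference can be tied to. The 2 cell types were sorted from different reporter lines, so cell type and line cannot be told apart. The same holds for the sexes of supporting cells at 12.5 and 13.5 dpc, for the stages of XY supporting cells and for the change of their sex difference. It also holds, through XY supporting cells, for the change over time of the difference between the cell types. Separate litters or pools are not named in the labels for the 3 arrays of a group. The p-values therefore measure the spread between these arrays alone, and that spread may be technical.

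The sorted cells carried the markers of their labels. The median of 10 germ cell genes lay between 9.71 and 10.83 in the 17 germ cell arrays and between 5.69 and 6.63 in the 18 supporting cell arrays. The median of 13 supporting cell genes lay between 8.54 and 9.67 in supporting cell arrays and between 6.34 and 7.0 in germ cell arrays. In the array that was left out these medians were 5.86 and 9.35, and 8 stromal genes had a median of 9.74 against at most 7.47 in the 35 arrays used. Array medians over all genes lay between 6.54 and 7.01. Within each array the deposited values lay on up to 3 separate linear scales for different sets of table rows, with medians 0.016 to 0.751 apart, and the sources used here do not say what made these row sets. Counts of members are therefore also given with the row sets aligned, and the value of a member past the test is given so where its call ended or its size differed by more than 1.5 times.

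Differences were tested with limma, and an adjusted p (padj) under 0.05, over all 19938 genes of a comparison, is called past the test. Of 36 members, 32 passed in 1 or more of 14 comparisons, with 107 calls in all. The same count was not made over all genes, of which 47.2% passed in the comparison of germ with supporting cells alone. Of the 107 calls, 105 were kept with the row sets aligned and 69 in every setting that was run, including the omission of each array in turn. Slc2a4, a glucose transporter of muscle and fat, Pfkfb4, Eno2 and Hk1, read from the probe set of the rule, passed in no comparison. The plot of group means shows each member over the 12 groups.

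**Figure D1:**
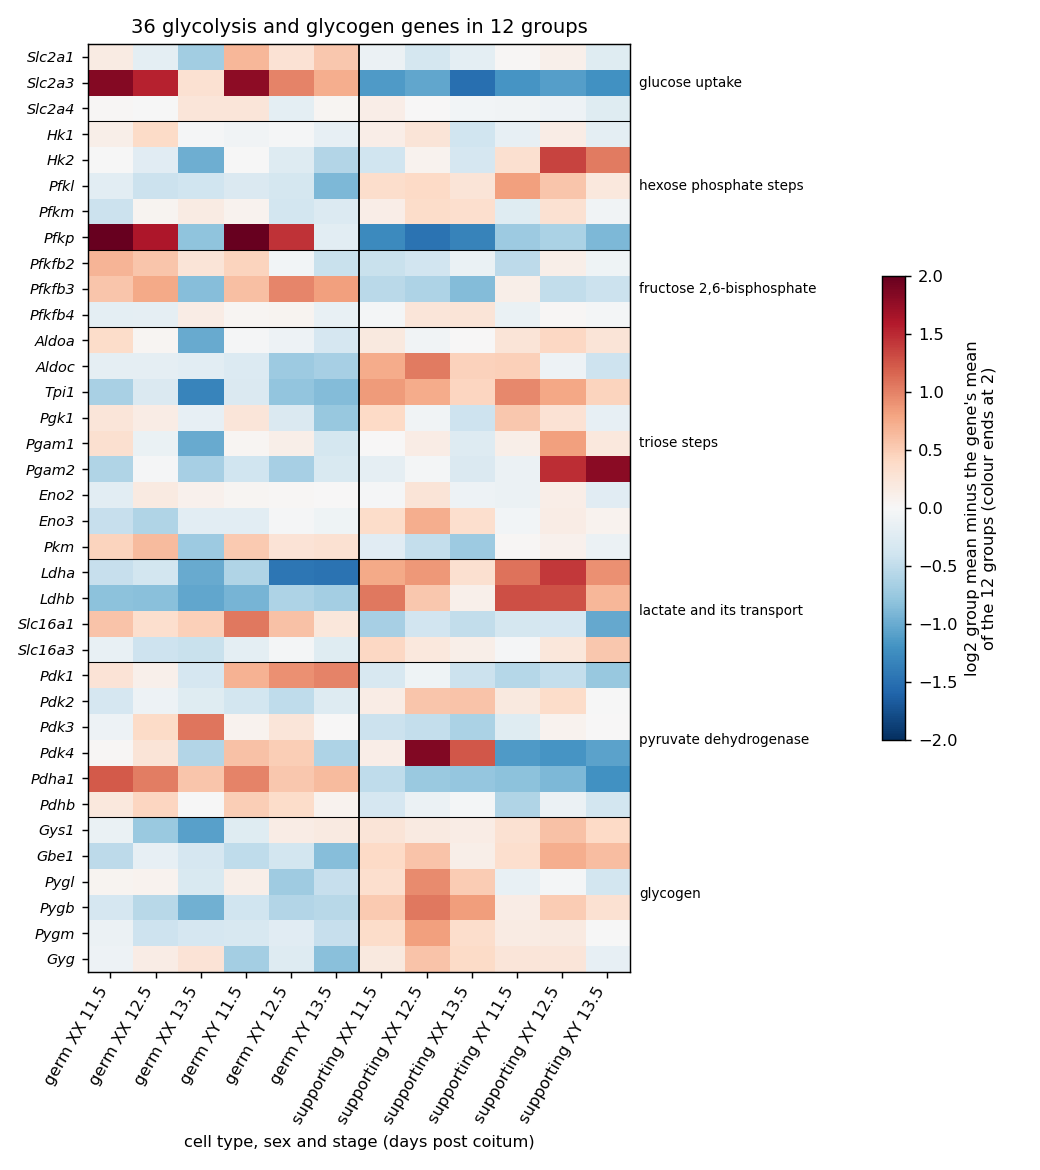
Mean log2 expression of 36 glycolysis and glycogen genes in 12 groups (columns: cell type, sex and days post coitum), shown as the difference from the gene's own mean of the 12 group means, with red above and blue below it and the colour ending at 2. Slc2a3 and Pfkp are red in germ cells at 11.5 and 12.5 dpc, Ldha and Ldhb are red in supporting cells, and Pgam2 is darkest in XY supporting cells at 13.5 dpc.

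Hk1, which encodes a hexokinase, needs a caution of its own. The probe set the rule selects carries an accession that it shares with 16 probe sets annotated to both Rpl17 and Hk1, and it read 12.05 to 13.25 in every array. The probe set of Hk1 that carries its RefSeq accessions was examined after the data had been seen. By that probe set Hk1 was lower in germ than in supporting cells by -0.82 (SE 0.09, padj = 1.46e-11). It fell from 11.5 to 13.5 dpc in germ XX cells by 1.73 (padj = 1.65e-08), in germ XY cells by 1.74 (padj = 1.81e-08) and in supporting XX cells by 1.27 (padj = 2.28e-05), from means of 8.12 ± 0.46, 8.24 ± 0.05 and 8.78 ± 0.10 (SD, n = 3) to 6.39 ± 0.21, 6.49 ± 0.15 and 7.51 ± 0.35. The RefSeq probe set also stood higher in XY than XX supporting cells at 12.5 dpc by 1.27 (padj = 6.07e-06). None of these is counted among the calls below.

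More members were lower than higher in germ cells, and the share that was higher lay near that of all genes. Averaged over the 6 pairs of sex and stage, 11 members were higher and 19 lower in germ cells, against 29.1% and 18.1% of all genes. With the row sets aligned 11 were higher and 21 lower, against 30.0% and 30.3%. The median difference of the members was -0.31, or -0.37 with the row sets aligned, against 0.07 and 0.00 for all genes. In sorted cells taken in bulk, fewer cells of a type and less RNA per cell cannot be told apart.

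Among the measured glucose transporter genes of the list Slc2a3, which encodes GLUT3, a transporter of high affinity, differed most between the cell types. It ranged from 7.04 to 9.54 with a median of 8.39 in germ cell arrays, and from 5.69 to 6.50 with a median of 5.99 in supporting cell arrays. No germ cell array overlapped a supporting cell array, and the difference was 2.39 (SE 0.10, padj = 2.27e-27), a ratio of 5.25. Slc2a1, which encodes the widely expressed transporter GLUT1, was higher in germ cells by 0.26 (SE 0.08, padj = 0.00865), but by 0.14 with the row sets aligned. With quantile normalisation the call of Slc2a1 was lost (0.14, padj = 0.135). In XX cells at 13.5 dpc its mean was lower in germ cells by -0.50, while in the other 5 pairs it was higher.

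The 3 genes of phosphofructokinase, the committed step of glycolysis, did not move together. Pfkp, the platelet form, ranged from 6.54 to 10.01 with a median of 9.07 in germ cells and from 5.41 to 7.26 with a median of 6.48 in supporting cells. It was higher in germ cells by 2.11 (SE 0.10, padj = 6.15e-25), by 0.53 to 3.40 in the single pairs, and the arrays of the 2 cell types overlapped only through germ cells at 13.5 dpc. Pfkl, the liver form, was lower in germ cells by -0.86 (SE 0.08, padj = 3.22e-13), with medians of 7.15 and 7.95 and no overlap in any of the 6 pairs. Pfkm, the muscle form, was lower by -0.27 (SE 0.09, padj = 0.0141), and without replicate 1 of germ XX at 12.5 dpc the call was lost (-0.19, padj = 0.0888).

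Hk2, the inducible hexokinase, was lower in germ cells by -0.68 (SE 0.10, padj = 1.78e-08), with medians of 7.2 and 7.6. Its single pairs ran from 0.39 in XX cells at 11.5 dpc to -1.62 in XY cells at 13.5 dpc. Of the 3 measured genes for the bifunctional enzymes that set fructose 2,6-bisphosphate, the activator of phosphofructokinase, Pfkfb3 was higher in germ cells by 0.95 (SE 0.09, padj = 1.7e-13) and Pfkfb2 by 0.48 (SE 0.09, padj = 5.29e-06). Pfkfb3 had medians of 8.94 and 7.90, and its difference in XX cells at 13.5 dpc was 0.00.

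Below the split of the hexose, 6 of 9 genes were lower in germ cells and 1 was higher, against 18.1% and 29.1% of all genes. Tpi1, the triose phosphate isomerase, ranged from 8.25 to 10.13 with a median of 9.41 in germ cells and from 10.15 to 11.16 with a median of 10.75 in supporting cells. These ranges did not overlap, and the difference was -1.39 (SE 0.09, padj = 1.48e-18). Pgam2, the muscle form of phosphoglycerate mutase, was lower by -0.89 (SE 0.09, padj = 9.43e-12), which rested on XY pairs at 12.5 and 13.5 dpc (-2.14 and -2.12), while the other 4 pairs lay between -0.42 and 0.01. Aldoc, the brain aldolase, was lower by -0.74 (SE 0.11, padj = 3.5e-08), and Eno3, Aldoa and Pgam1 by -0.53, -0.35 and -0.34. Pkm, the pyruvate kinase that makes the last ATP of the pathway, was higher in germ cells by 0.48 (SE 0.08, padj = 9.82e-07), by 0.25 with the row sets aligned and by 0.22 with quantile normalisation. The other probe set of Pkm gave 0.22.

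Both lactate dehydrogenase genes were lower in germ cells. Ldhb ranged from 9.92 to 10.74 with a median of 10.29 in germ cells and from 11.11 to 12.68 with a median of 12.06 in supporting cells, with no overlap and a difference of -1.64 (SE 0.08, padj = 1.44e-23). Its other probe set gave -1.06. Ldha ranged from 7.03 to 9.35 with a median of 7.97 in germ cells and from 9.07 to 10.76 with a median of 9.95 in supporting cells, and was lower by -1.79 (SE 0.10, padj = 5.22e-22), a ratio of 3.45. The ranges of Ldha overlapped through replicate 1 of germ XX at 11.5 dpc, at 9.35, and the next highest germ cell array read 8.88.

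The 2 lactate transporters went opposite ways. Slc16a1, which encodes MCT1, a carrier of lactate and pyruvate in both directions, ranged from 7.48 to 8.72 with a median of 7.87 in germ cells and from 6.19 to 7.36 with a median of 6.81 in supporting cells. It was higher in germ cells by 1.08 (SE 0.09, padj = 2.14e-15), without overlap. Slc16a3, which encodes MCT4, the export form of glycolytic cells, was lower by -0.49 (SE 0.08, padj = 5.91e-07), with medians of 7.48 and 7.93.

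At the entry to the mitochondrion 4 of 6 genes were higher in germ cells and 1 was lower, against 29.1% and 18.1% of all genes. Pdha1, the catalytic subunit of pyruvate dehydrogenase, ranged from 9.26 to 10.60 with a median of 9.90 in germ cells and from 7.80 to 8.78 with a median of 8.35 in supporting cells. It was higher by 1.65 (SE 0.09, padj = 1.05e-21), by 1.33 to 1.85 in the single pairs and without overlap. The partner subunit gene Pdhb was higher by 0.52 (SE 0.08, padj = 1.5e-07). Among the inhibitory kinases, Pdk1 was higher by 0.88 (SE 0.09, padj = 1.81e-12) and Pdk3 by 0.56 (SE 0.10, padj = 2.54e-06), while Pdk2 was lower by -0.61 (SE 0.11, padj = 3.12e-06). Pdk4 did not pass (0.06, SE 0.13, padj = 0.755), and its pairs lay from -1.82 in XX cells at 13.5 dpc to 1.73 in XY cells at 11.5 dpc.

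All 6 measured glycogen genes were lower in germ cells, against 18.1% of all genes. Pygb, the brain glycogen phosphorylase, was lower by -1.12 (SE 0.10, padj = 9.15e-15), with medians of 8.50 and 9.57 and no overlap in any pair. The branching enzyme gene Gbe1 was lower by -0.92 (SE 0.11, padj = 2.24e-10), with medians of 7.29 and 7.97. Gys1, glycogen synthase, and Pygm, the muscle phosphorylase, were each lower by -0.63 (SE 0.09), with padj = 8.35e-08 and 1.81e-08. Gyg, the primer protein glycogenin, was lower by -0.48 (SE 0.11, padj = 1.11e-04) and Pygl, the liver phosphorylase, by -0.41 (SE 0.10, padj = 3.36e-04).

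**Figure D2:**
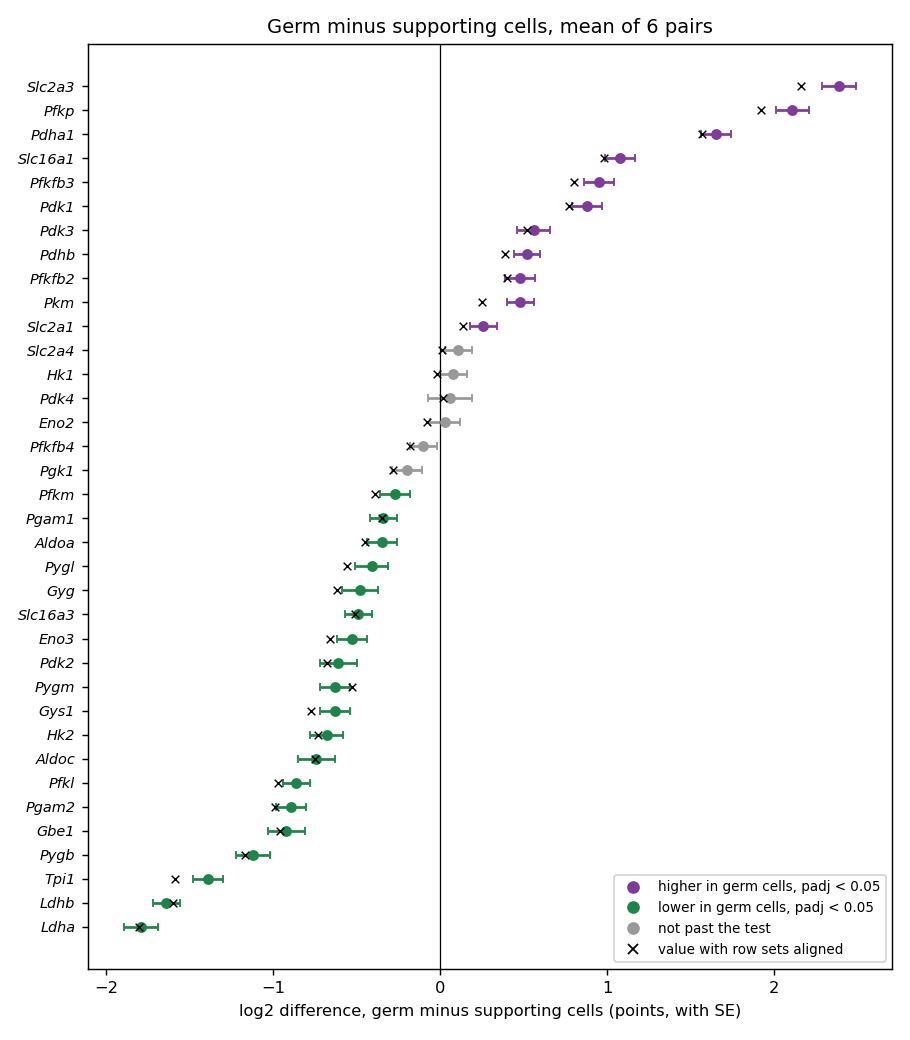
Difference in log2 expression between germ and supporting cells for each of 36 members, as the mean of 6 pairs of sex and stage (points, with SE; 17 against 18 arrays), with the value after row sets were aligned as a cross. Slc2a3 (2.39) and Pfkp (2.11) stand at the germ cell end and Ldha (-1.79), Ldhb (-1.64) and Tpi1 (-1.39) at the supporting cell end.

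The difference between the cell types itself changed between 11.5 and 13.5 dpc. It draws on XY supporting cells, whose reporter line changed between these stages, so line and stage cannot be told apart there. Over XX and XY together, 1 member rose in germ relative to supporting cells and 9 fell, against 4.03% and 10.6% of all genes. Alignment of the row sets gave 3 that rose and 12 that fell, against 9.87% and 16.3%. In the same comparison 6 of 10 germ cell markers fell and 0 rose (median -0.93), and of 13 supporting cell markers 4 rose and 2 fell, and their part was not tested. Pfkp fell most (-2.53, SE 0.24, padj = 1.46e-11), followed by Pdk4 (-1.48), Hk2 (-1.15), Slc2a3 (-1.09), Pfkfb2 (-1.04), Pgam2 (-0.90), Pgam1 (-0.79), Aldoa (-0.75) and Pdhb (-0.59). For Pgam2 the germ minus supporting difference went from -0.28 to -2.12 in XY cells and from -0.42 to -0.37 in XX cells. Ldhb was the member that rose (0.80, SE 0.20, padj = 0.00266), and with the mean of its 2 probe sets it did not pass (0.53, padj = 0.058). Pdhb lost its call (padj 0.0617 to 0.076) without replicate 2 of germ XX, replicate 3 of germ XY, or replicate 3 of either supporting sex, all at 11.5 dpc, and with quantile normalisation (-0.34, padj = 0.21).

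Germ cells of XX gonads begin to enter meiosis around the last of these stages. From 11.5 to 13.5 dpc 12 of 36 members fell in them and 1 rose, against 9.45% and 5.83% of all genes, or 16 and 2 with the row sets aligned, against 11.2% and 9.71%. The median of the members was -0.32 and that of all genes -0.14, or -0.32 and -0.03 with the row sets aligned. Those that fell held 2 of 3 glucose transporters, 2 of 5 genes of the hexose phosphate steps, 1 of 3 of fructose 2,6-bisphosphate, 4 of 9 of the triose steps, 2 of 6 of pyruvate dehydrogenase and 1 of 6 glycogen genes. Of the 4 genes of lactate and its transport 0 passed, and the member that rose was of the pyruvate dehydrogenase group. Markers moved as well: of 10 germ cell genes 6 fell and 2 rose in the same comparison, and their part in these results was not tested.

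Pfkp read 9.67, 9.44 and 9.90 in XX germ cells at 11.5 dpc, 9.07 and 9.25 at 12.5 dpc, and 7.06, 6.62 and 6.54 at 13.5 dpc. The arrays of the 3 stages did not overlap. The group means were 9.67, 9.16 and 6.74, or 9.65, 8.57 and 6.97 with the row sets aligned, and the steps to and from 12.5 dpc were not tested. From 11.5 to 13.5 dpc Pfkp fell by 2.93 (SE 0.24, padj = 1.03e-13). At 13.5 dpc it still lay above the XX supporting cells of that stage, which read from 6.12 to 6.26.

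Slc2a3 read 9.54, 8.89 and 8.76 at 11.5 dpc and 8.08, 7.04 and 7.46 at 13.5 dpc, and fell by 1.54 (SE 0.23, padj = 2.22e-06). Pfkfb3 read 8.88, 8.70 and 9.14 at 11.5 dpc, 8.92 and 9.30 at 12.5 dpc, and 7.99, 7.21 and 7.28 at 13.5 dpc, and fell by 1.41 (SE 0.21, padj = 1.55e-06). In both genes each array at 13.5 dpc lay below each array of the earlier stages.

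Aldoa, the main aldolase, read 11.48, 11.54 and 11.93 at 11.5 dpc and 10.55, 10.23 and 10.03 at 13.5 dpc, a fall of 1.38 (SE 0.21, padj = 2.32e-06). Pgam1, the main phosphoglycerate mutase, went from 9.76, 9.16 and 9.34 to 8.47, 8.12 and 7.70, a fall of 1.32 (SE 0.20, padj = 1.55e-06). Pkm went from 11.18, 11.01 and 11.34 to 10.12, 9.86 and 9.98, a fall of 1.19 (SE 0.19, padj = 7.07e-06). The groups of all 3 genes did not overlap. By its other probe set Pkm went from a mean of 10.72 to 9.99.

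Hk2 fell by 0.97 (SE 0.23, padj = 0.00155), Gys1 by 0.95 (SE 0.23, padj = 0.00162) and Slc2a1 by 0.86 (SE 0.20, padj = 0.00148). Slc2a1 read 8.57, 8.67 and 8.57 at 11.5 dpc and 7.59, 7.74 and 7.89 at 13.5 dpc. The kinase gene Pdk3 was the member that rose, from 8.93, 9.03 and 8.94 to 9.88, 10.48 and 10.06, by 1.18 (SE 0.24, padj = 1.93e-04).

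Tpi1 (-0.67), Pdha1 (-0.67) and Pdk1 (-0.61) passed with less margin. Pdha1 was at -0.27 with the row sets aligned (padj = 0.244). Leaving out 1 array ended the call of Tpi1 without replicate 1 or 3 at 11.5 dpc or 2 or 3 at 13.5 dpc (padj 0.0588 to 0.302, lowest size -0.43), that of Pdha1 without replicate 1 at 11.5 dpc or 2 or 3 at 13.5 dpc (padj 0.104 to 0.271), and that of Pdk1 without any array at 11.5 dpc or replicate 1 or 2 at 13.5 dpc (padj 0.0528 to 0.163).

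The promoters of 4 of the genes that fell in XX germ cells are shown, picked because they hold the core of the hypoxia response element, ACGTG on either strand, to which the factor HIF binds in known glycolytic genes. The sequences are the 250 bases before the annotated start, from RefSeq on GRCm38.p6, 5′ to 3′ along the gene's strand, with the motif in capitals. Slc2a1 lies at chr4:119108495-119108744 (+), Pfkfb3 at chr2:11502091-11502340 (-), Pgam1 at chr19:41911621-41911870 (+) and Hk2 at chr6:82774455-82774704 (-).
Slc2a1: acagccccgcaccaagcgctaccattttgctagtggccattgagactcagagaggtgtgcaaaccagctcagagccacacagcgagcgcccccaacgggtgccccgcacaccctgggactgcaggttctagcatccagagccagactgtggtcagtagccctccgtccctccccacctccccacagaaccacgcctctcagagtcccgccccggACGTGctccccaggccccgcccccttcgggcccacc
Pfkfb3: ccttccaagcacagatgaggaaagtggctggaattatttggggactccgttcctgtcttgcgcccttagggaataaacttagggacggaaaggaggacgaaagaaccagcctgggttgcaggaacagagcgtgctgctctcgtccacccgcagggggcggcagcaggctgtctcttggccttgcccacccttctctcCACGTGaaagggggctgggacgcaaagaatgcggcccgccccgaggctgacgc
Pgam1: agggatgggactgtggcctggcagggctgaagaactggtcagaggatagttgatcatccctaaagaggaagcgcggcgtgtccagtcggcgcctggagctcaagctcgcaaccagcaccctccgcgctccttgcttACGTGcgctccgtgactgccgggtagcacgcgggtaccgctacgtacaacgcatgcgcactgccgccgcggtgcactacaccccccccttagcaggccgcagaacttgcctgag
Hk2: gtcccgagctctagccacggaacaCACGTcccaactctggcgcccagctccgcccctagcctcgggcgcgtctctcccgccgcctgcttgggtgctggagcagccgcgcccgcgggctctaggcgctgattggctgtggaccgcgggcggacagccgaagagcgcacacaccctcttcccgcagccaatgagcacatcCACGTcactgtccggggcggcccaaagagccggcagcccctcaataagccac
Slc2a1 and Pgam1 hold 1 match each and Hk2 holds 2. Pfkfb3, which has 2 windows in the table, holds 2 matches that overlap as CACGTG, the letters of the E-box that MYC and other factors bind. The table gave windows of 250 bases before to 50 after the start for 34 of the 36 measured members. Of these, 21 members (61.8%) held the motif in a window, against 21.8% of 27025 genes, and 25 of 48 windows (52.1%) against 19.6% of 32851 windows. The genes compared include genes not measured here. They were not matched to the members for base composition or number of windows, and what the shares reflect was not tested. Of the 12 members that fell in XX germ cells 11 had a window, and 6 of these held the motif. Pfkp, which fell most, Gys1, Tpi1, Pdha1 and Pdk1 did not hold it in these windows, and Pdk3, which rose, did. A match describes these letters and is not a binding site.

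Germ cells of XY gonads stop dividing over these days. From 11.5 to 13.5 dpc 8 members fell and 0 rose, against 4.19% and 2.90% of all genes. An unadjusted p under 0.05 in limma's test was found for 13 of 36 members, against 3148 of 19938 genes. Alignment of the row sets gave 12 and 0, against 7.17% and 6.91%. Of 10 germ cell markers 2 fell and 1 rose, and their part was not tested. Pfkp read 9.72, 10.01 and 9.38 at 11.5 dpc, 9.25, 8.69 and 9.04 at 12.5 dpc, and 6.84, 7.77 and 7.42 at 13.5 dpc, and fell by 2.36 (SE 0.24, padj = 1.38e-10). Each array at 13.5 dpc lay below each earlier one, as in XX cells.

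Slc2a3 fell by 1.06 (SE 0.23, padj = 0.00156), from 8.57, 8.95 and 9.47 to 7.44, 8.04 and 8.34, and with array weights it was at -0.61 and did not pass (padj = 0.127). Pgk1, the first ATP-making kinase of the pathway, fell by 0.98 (SE 0.22, padj = 0.00128), from 11.44, 10.88 and 11.78 to 10.28, 10.73 and 10.14. Pfkfb2 fell by 0.89 (SE 0.21, padj = 0.00316), from 8.41, 8.38 and 8.59 to 7.48, 7.53 and 7.69. None of these groups overlapped. In XY germ cells the other probe sets of Pgk1 went from means of 11.14 and 10.96 to 10.29 and 10.31. In XX germ cells they went from 11.66 and 11.31 to 10.65 and 10.40, while the probe set used went from 11.38 to 10.97 and did not pass. The other probe sets were not tested singly, so a fall of Pgk1 in XY cells alone depends on the probe set.

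Pdk4 (-1.20), Ldha (-0.87), Slc16a1 (-0.83) and Pfkl (-0.61) also passed. Pdk4 was not past the test without replicate 3 at 11.5 dpc (-0.77, padj = 0.238) or replicate 1 at 13.5 dpc (padj = 0.141), Ldha without replicate 1 or 3 at 11.5 dpc or 1 at 13.5 dpc (padj 0.085 to 0.172), Slc16a1 without replicate 1 or 3 at 11.5 dpc (padj 0.0711 to 0.0943), and Pfkl without replicate 1 or 3 at 11.5 dpc or 1 at 13.5 dpc (padj 0.0585 to 0.323). Pdk4 was also lost with array weights (-0.97, padj = 0.0657). Several genes that changed in XX cells had values here that did not pass, with Pfkfb3 at 0.21, Slc2a1 at -0.13, Pkm at -0.22, Aldoa at -0.31, Gys1 at 0.43 and Pdk3 at -0.06.

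**Figure D3:**
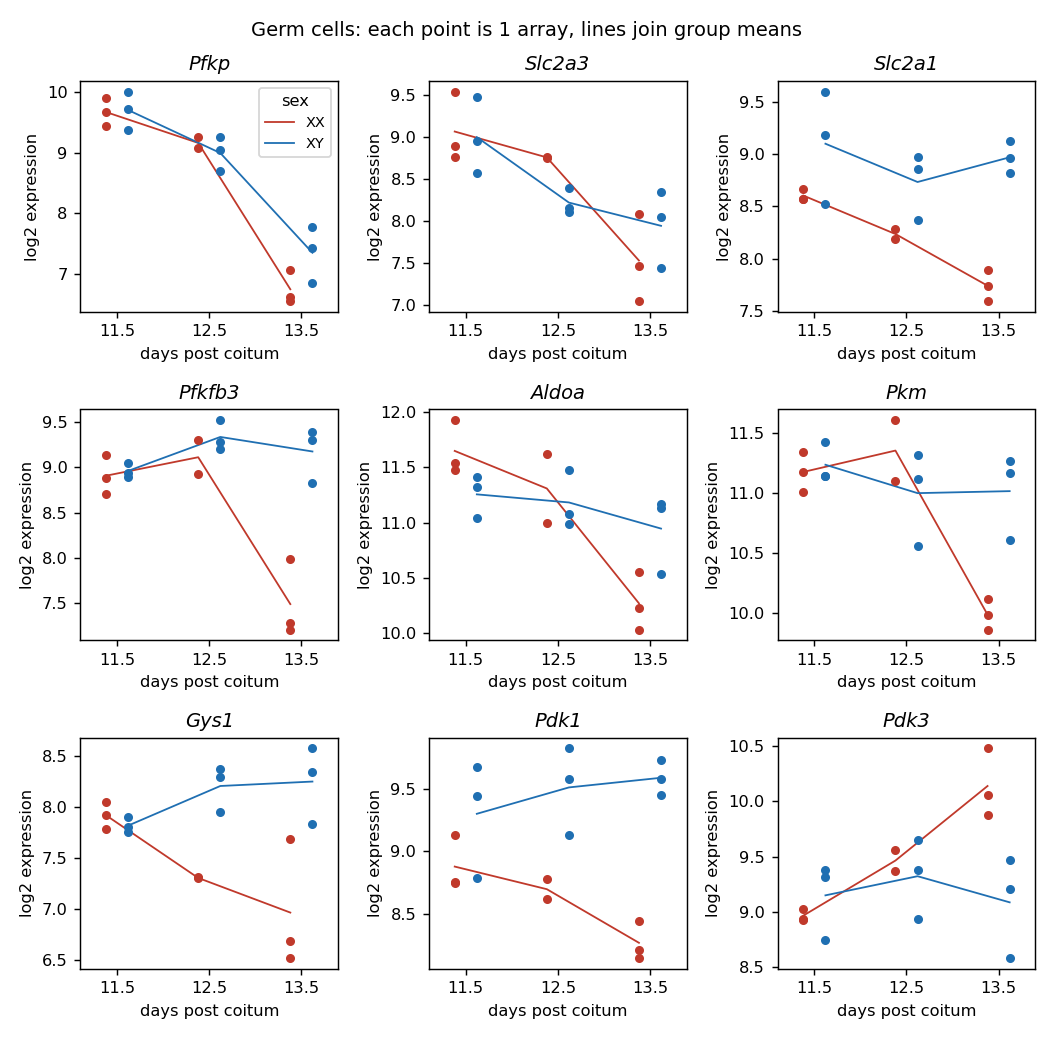
Log2 expression (vertical axis) of 9 members in germ cells at 11.5, 12.5 and 13.5 days post coitum, with each array as a point and lines through the group means, XX in red and XY in blue (3 arrays per group, 2 in XX at 12.5 dpc). Pfkp falls in both sexes, Pfkfb3, Pkm and Gys1 separate by sex at 13.5 dpc, and Pdk3 rises in XX cells.

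The sexes of germ cells drew apart over the same days. At 11.5 dpc 0 members differed between XY and XX germ cells in limma's test, against 0.0251% of all genes higher and 0.0% lower in XY. In that test 4 of 36 members had an unadjusted p under 0.05, against 586 of 19938 genes. At 12.5 dpc 1 member was higher and 1 lower in XY, against 0.426% and 1.37%, or 1 and 2 with the row sets aligned, against 0.787% and 1.17%. At 13.5 dpc 7 were higher and 3 lower in XY, against 5.28% and 3.93%, or 8 and 6 with the row sets aligned, against 8.98% and 8.32%. Of 10 germ cell markers 4 were higher and 1 lower in XY at 13.5 dpc, and their part was not tested.

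At 12.5 dpc Gys1 read 8.29, 8.37 and 7.95 in XY against 7.31 and 7.30 in XX germ cells, a difference of 0.89 (SE 0.25, padj = 0.0488). Ldha read 7.59, 7.29 and 7.77 in XY against 8.39 and 8.88, a difference of -1.09 (SE 0.26, padj = 0.0157). The groups did not overlap, but neither call was firm. With the row sets aligned Ldha was at -0.68 (padj = 0.0529) and with array weights at -1.0 (padj = 0.103), and it was lost without replicate 2 of XX or of XY (padj = 0.425 and 0.125). Gys1 was lost without either XX array or without replicate 1 or 2 of XY (padj 0.115 to 0.351) and with array weights (padj = 0.316). With the XX array that had been left out, Gys1 was at 0.57 (padj = 0.21) and Ldha at -1.74 (padj = 0.00181).

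At 13.5 dpc Pfkfb3 differed most. It read 8.83, 9.30 and 9.39 in XY and 7.99, 7.21 and 7.28 in XX germ cells, a difference of 1.68 (SE 0.21, padj = 5.47e-08), a ratio of 3.20. Every XY array lay above every XX array.

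Pdk1, whose kinase restrains pyruvate dehydrogenase, read 9.73, 9.45 and 9.58 in XY and 8.15, 8.22 and 8.45 in XX (1.31, SE 0.21, padj = 9.26e-06). Gys1 read 7.83, 8.57 and 8.34 in XY and 7.69, 6.52 and 6.69 in XX (1.27, SE 0.23, padj = 4.88e-05). Slc2a1 read 8.82, 8.96 and 9.13 in XY and 7.59, 7.74 and 7.89 in XX (1.23, SE 0.20, padj = 1.47e-05). Pkm read 10.61, 11.17 and 11.27 in XY and 10.12, 9.86 and 9.98 in XX (1.03, SE 0.19, padj = 1.24e-04). In these 4 genes too the sexes did not overlap. By its other probe set Pkm had means of 10.69 in XY and 9.99 in XX.

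Aldoa (0.68, or 0.43 with the row sets aligned) and Pgam1 (0.65) were higher in XY, and Pfkfb2 was lower (-0.70, or -0.46 with array weights, padj = 0.0785). Leaving out 1 array ended these calls. It did so for Aldoa without replicate 2 or 3 of either sex (padj 0.0956 to 0.201), for Pgam1 without replicate 2 or 3 of XX or 3 of XY (padj 0.0659 to 0.301) and for Pfkfb2 without replicate 1 or 3 of XX or 1 or 2 of XY (padj 0.0544 to 0.137). In a fit of only these 6 arrays the 3 genes did not pass (padj = 0.0957, 0.124 and 0.0842).

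Lower in XY were Pdk3 and Gyg. Pdk3 read 8.58, 9.21 and 9.47 in XY against 9.88, 10.48 and 10.06 in XX, without overlap (-1.06, SE 0.24, padj = 0.00129). Gyg read 6.53, 7.77 and 7.46 in XY against 9.01, 8.39 and 7.67 in XX, with overlap (-1.11, SE 0.25, padj = 0.00192). Without replicate 1 of XY at 13.5 dpc Gyg was at -0.75 (padj = 0.0504), and with array weights at -0.74.

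Pdk3, Pdha1 and Pgk1 are the members on the X chromosome. At 13.5 dpc the XY minus XX difference in germ cells was -1.06 for Pdk3, -0.59 for Pgk1 (padj = 0.0824) and 0.07 for Pdha1 (padj = 0.912). The other probe sets of Pgk1 lay closer between the sexes, with means of 10.29 and 10.31 in XY against 10.65 and 10.40 in XX. The X-linked phosphorylase kinase subunit genes Phka1 and Phka2, which act on glycogen breakdown, were at -1.08 and -0.94 and passed.

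The change of the sex difference in germ cells from 11.5 to 13.5 dpc was tested directly. It passed upward, toward XY, for 4 members and downward for 1, against 1.58% and 1.66% of all genes, or for 8 and 1 with the row sets aligned, against 3.98% and 3.68%. In the same test 2 of 10 germ cell markers moved upward and 1 downward, and their part was not tested. Pfkfb3 changed by 1.63 (SE 0.30, padj = 3.71e-04) and Gys1 by 1.38 (SE 0.32, padj = 0.00573). Aldoa changed by 1.07 (0.59 with the row sets aligned), Pkm by 0.97 (0.62 aligned) and Pdk3 by -1.24 (SE 0.33, padj = 0.0234). Aldoa, Pkm and Pdk3 lost their calls without any of 6, 8 and 5 of the 12 arrays, with padj of 0.0687 to 0.12, 0.0579 to 0.127 and 0.0515 to 0.101. For Aldoa these were replicate 3 of both sexes at 11.5 dpc and replicates 2 and 3 of both at 13.5 dpc. For Pkm they were replicates 1 and 3 of XX and 1 and 2 of XY at 11.5 dpc and replicates 2 and 3 of both sexes at 13.5 dpc. For Pdk3 they were replicate 3 of XX and 1 and 3 of XY at 11.5 dpc and replicate 2 of XX and 1 of XY at 13.5 dpc. Slc2a1 (0.74, padj = 0.193) and Pdk1 (0.89, padj = 0.0957) did not pass.

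In supporting cells Pdk4 was lower in XY at each stage, and Hk2 and Pgam2 were higher in XY at 12.5 and 13.5 dpc. At 11.5 dpc, when both sexes came from the same reporter line, 0 members were higher in XY and 1 was lower, against 1.62% and 1.71% of all genes. With the row sets aligned 6 were higher and 2 lower, against 5.57% and 3.06%. At 12.5 dpc 6 were higher and 4 lower in XY, against 8.48% and 4.89%, or 14 and 6 aligned, against 18.7% and 9.02%. At 13.5 dpc 4 were higher and 3 lower, against 7.21% and 5.02%, or 10 and 7 aligned, against 16.4% and 9.30%.

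Pdk4, the pyruvate dehydrogenase kinase known from fasting tissues, was lower in XY supporting cells at all 3 stages. At 11.5 dpc it read 5.65, 5.82 and 5.57 in XY and 7.42, 6.83 and 6.61 in XX, without overlap (-1.28, SE 0.31, padj = 0.00771). Without replicate 1 of XX this call was lost (-1.04, padj = 0.106).

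At 12.5 dpc Pdk4 read 6.18, 5.43 and 5.31 in XY and 9.01, 8.41 and 8.58 in XX, a difference of -3.03 (SE 0.31, padj = 4.33e-11) and a ratio of 8.16. At 13.5 dpc it read 5.55, 5.64 and 6.05 in XY and 8.65, 7.48 and 8.05 in XX (-2.31, SE 0.31, padj = 6.86e-08). The XY arrays stayed at one level over the stages, and the XX arrays were higher at both later stages. The change of the difference from 11.5 to 13.5 dpc was -1.04 and did not pass (padj = 0.253).

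Pgam2 went the other way. At 11.5 dpc it read 7.34, 7.65 and 6.88 in XY and 7.17, 7.35 and 7.15 in XX supporting cells, with overlap. At 12.5 dpc it read 8.43, 9.47 and 8.78 in XY and 7.46, 7.68 and 6.97 in XX (1.52, SE 0.23, padj = 6.21e-07). At 13.5 dpc it read 9.02, 9.28 and 9.36 in XY and 7.13, 6.95 and 7.28 in XX (2.10, SE 0.23, padj = 1.81e-10), a ratio of 4.29. The sexes did not overlap at either later stage, and Pgam2 was the single member whose sex difference changed from 11.5 to 13.5 dpc in supporting cells (2.04, SE 0.32, padj = 8.12e-06). That comparison called 2.71% of all genes upward and 1.55% downward. With the row sets aligned 2 members passed upward and 1 downward, against 6.88% and 4.82%. Of 4 fetal Leydig genes 2 passed upward, and their part was not tested.

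Hk2 read 9.09, 8.58 and 8.76 in XY and 7.42, 7.57 and 7.55 in XX at 12.5 dpc (1.29, SE 0.23, padj = 2.05e-05), and 8.54, 8.47 and 8.46 against 7.30, 6.76 and 7.28 at 13.5 dpc (1.38, SE 0.23, padj = 6.68e-06). No XY array fell within the XX range at these stages. Aldoc was lower in XY, with 7.53, 7.14 and 7.19 against 8.33, 8.26 and 8.63 at 12.5 dpc (-1.12, SE 0.25, padj = 9.10e-04), and at 13.5 dpc by -0.86 (padj = 0.0147). The later call of Aldoc was lost without replicate 1 of XX or 1 or 2 of XY (padj 0.0572 to 0.134).

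Pygl was lower in XY supporting cells by -0.99 at 12.5 dpc (SE 0.23, padj = 0.00146), with 7.26, 7.65 and 7.76 against 9.07, 8.29 and 8.28. At 13.5 dpc it was lower by -0.87 (SE 0.23, padj = 0.00602), with 7.19, 7.05 and 7.48 against 8.22, 8.24 and 7.88. The sexes did not overlap at either stage, and both calls were kept on leaving out any single array.

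The other sex differences of supporting cells had less margin. Ldhb was higher in XY by 0.74 at 12.5 dpc and 0.57 at 13.5 dpc, and Pkm by 0.56 and 0.61. At 12.5 dpc Pfkp (0.84) and Pgam1 (0.66, or 0.43 with the row sets aligned) were also higher and Pygm (-0.65) lower. Leaving out 1 array ended each of these calls. At 12.5 dpc this held for Ldhb without replicate 3 of XX (0.47) or 2 of XY (padj 0.0587 to 0.152), Pfkp without replicate 3 of XX (0.50) or 1 of XY (padj 0.113 to 0.214), Pgam1 without replicate 1 or 2 of XX or 1 of XY (padj 0.0511 to 0.226), Pygm without replicate 1 of XX or 2 or 3 of XY (padj 0.0787 to 0.211) and Pkm without any array but replicate 1 of XX (padj 0.0521 to 0.19). At 13.5 dpc it held for Ldhb without any of the 6 arrays (padj 0.0554 to 0.178) and for Pkm without any but replicate 1 of XX (padj 0.0549 to 0.12). With the mean of its probe sets Ldhb at 12.5 dpc was at 0.43 (padj = 0.171).

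Markers of other cell types also differed between XY and XX supporting cells. All 4 measured genes of the fetal Leydig list, the steroid-making cells of the testis, were higher in XY than XX supporting cells at 13.5 dpc, and 1 of 4 was at 12.5 dpc, or 3 of 4 with the row sets aligned. Their median lay between 6.98 and 7.59 in the XY arrays and between 5.44 and 5.56 in the XX arrays, and at 12.5 dpc between 5.51 and 6.13 in XY and 5.52 and 6.09 in XX. The median of 8 stromal genes lay between 7.22 and 7.47 in XY and 6.42 and 6.95 in XX at 12.5 dpc, and between 7.12 and 7.21 in XY and 6.56 and 6.78 in XX at 13.5 dpc, without overlap. Of these genes 2 were higher and 1 lower in XY at 12.5 dpc and 1 was higher at 13.5 dpc. Of 5 measured erythroid genes 2 were higher in XY at 12.5 dpc and 1 at 13.5 dpc. At 11.5 dpc 1 Leydig gene was lower, 1 stromal gene was higher and 1 lower, and 0 erythroid genes passed. The part of these markers in the sex differences of the members was not tested.

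**Figure D4:**
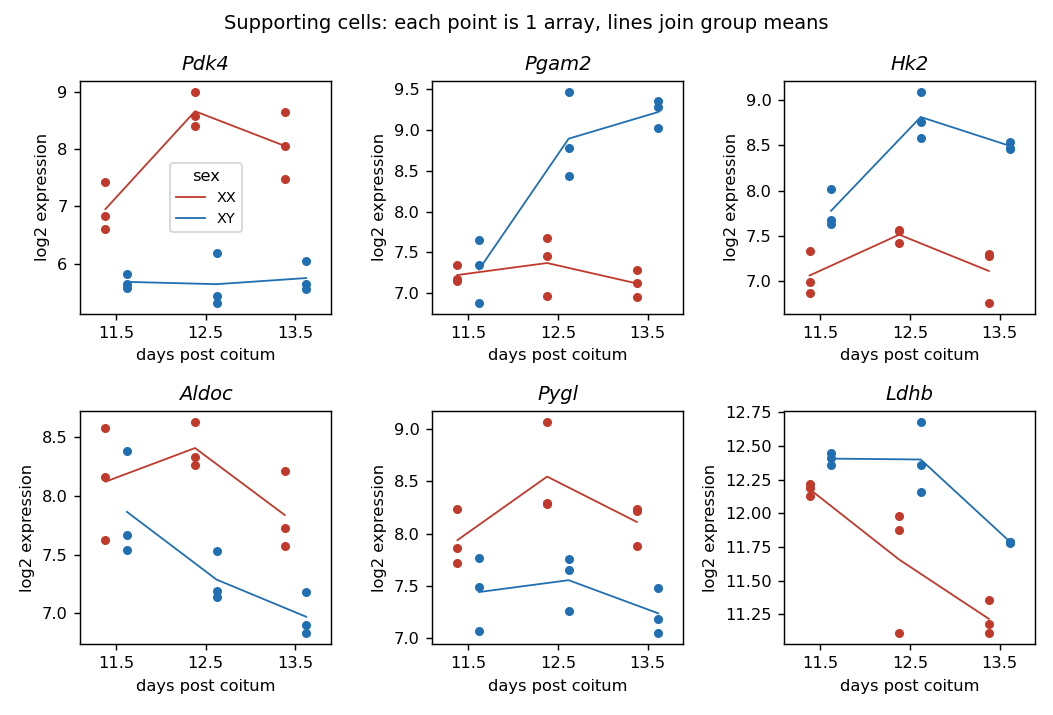
Log2 expression (vertical axis) of 6 members in supporting cells at 11.5, 12.5 and 13.5 days post coitum, with each of 3 arrays per group as a point and lines through the group means, XX in red and XY in blue. Pdk4, Aldoc and Pygl lie lower and Pgam2 and Hk2 higher in XY at 12.5 and 13.5 dpc.

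In XX supporting cells 1 member rose and 2 fell from 11.5 to 13.5 dpc, against 2.37% and 1.73% of all genes, or 3 and 5 with the row sets aligned, against 6.33% and 4.26%. In the same comparison 1 of 10 germ cell markers rose and 2 of 8 stromal genes fell, and their part was not tested. Ldhb fell by 0.96 (SE 0.20, padj = 7.29e-04), from 12.22, 12.13 and 12.19 to 11.36, 11.11 and 11.18, without overlap. Pgk1 fell by 0.81 (padj = 0.0143) and Pdk4 rose by 1.11 (padj = 0.0244). Pgk1 lost its call without replicate 2 or 3 at 11.5 dpc or 2 at 13.5 dpc (padj 0.0504 to 0.194), and Pdk4 without replicate 2 or 3 at 11.5 dpc or 1 or 3 at 13.5 dpc (padj 0.0637 to 0.306).

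In XY supporting cells, where the reporter line changed between the stages, 2 members rose and 5 fell, against 6.6% and 2.27% of all genes, or 4 and 8 with the row sets aligned, against 13.9% and 8.02%. Pgam2 rose by 1.93 (SE 0.23, padj = 4.28e-09), and Hk2 by 0.71 (SE 0.23, padj = 0.0381). Aldoc (-0.89), Pgk1 (-0.70), Slc16a1 (-0.67), Ldhb (-0.62) and Pfkl (-0.61) fell, with padj of 0.0158 to 0.0412. In the same comparison 3 of 4 fetal Leydig genes and 2 of 10 germ cell markers rose, and of 13 supporting cell markers 2 rose and 5 fell, and their part was not tested. On leaving out 1 array only Pgam2 kept its call in every case. Pgk1 and Ldhb lost theirs without any of the 6 arrays (padj 0.0562 to 0.0929 and 0.0698 to 0.125), Hk2 without any but replicate 2 at 11.5 dpc (padj 0.09 to 0.152) and Slc16a1 without any but replicate 3 at 11.5 dpc (padj 0.0514 to 0.254). Pfkl lost it without replicate 1 or 3 at 11.5 dpc or 2 or 3 at 13.5 dpc (padj 0.0919 to 0.266), and Aldoc without replicate 1 at 11.5 dpc or 1 or 2 at 13.5 dpc (padj 0.0601 to 0.2).

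The plot of both cell types sets their sex differences at 13.5 dpc side by side. Pkm was the 1 member that passed in both, and the difference between the cell types' sex differences was not tested. Hk2, Pgam2 and Pdk4, which passed in supporting cells, were at 0.39, 0.35 and -0.04 in germ cells. Pfkfb3, Pdk1, Gys1 and Slc2a1, which passed in germ cells, were at 0.44, -0.34, 0.26 and -0.05 in supporting cells.

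**Figure D5:**
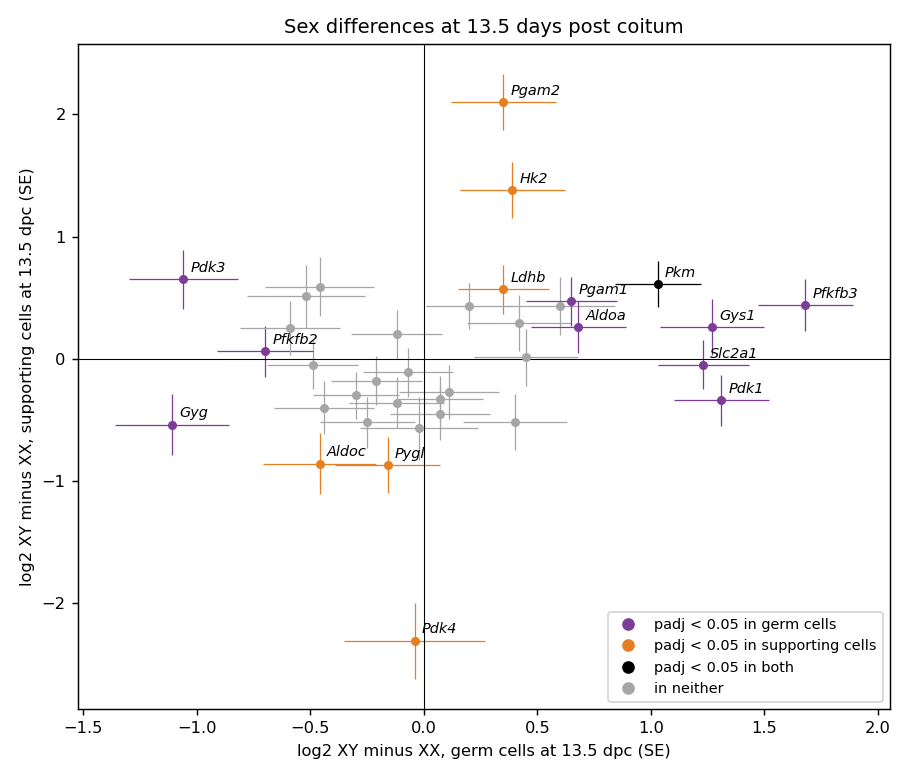
XY minus XX difference in log2 expression at 13.5 dpc for 36 members, in germ cells (horizontal axis) and supporting cells (vertical axis), with SE on both and named where past the test in either. Pfkfb3 (1.68 in germ cells) and Pgam2 (2.10 in supporting cells) lie near different axes, and Pkm is the member past the test in both.

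Lists of neighbouring pathways were read beside the members. Of 39 other measured genes of glycolysis and glycogen, 6 were higher and 9 lower in germ than in supporting cells, against 29.1% and 18.1% of all genes, or 6 and 18 with the row sets aligned, against 30.0% and 30.3%. Phka2 (0.92) and Tigar (0.77), which encodes a phosphatase that lowers fructose 2,6-bisphosphate, were among the higher ones. Ppp1r3c (-1.02), which targets a phosphatase to glycogen, and Ugp2 (-0.90), which makes the UDP-glucose that glycogen synthase uses, were among the lower ones. Ppp1r3c was higher in XY than XX supporting cells by 2.64 at 11.5 dpc, 1.54 at 12.5 dpc and 1.39 at 13.5 dpc, passing at each. Pgm2 fell from 11.5 to 13.5 dpc in germ cells by 1.77 in XX and 1.69 in XY, and Phka1 rose by 1.69 and 0.79.

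Of 25 measured genes of pyruvate entry and the tricarboxylic acid cycle, 15 were higher and 4 lower in germ cells, with a median of 0.35. Of all genes 29.1% were higher and 18.1% lower. With the row sets aligned the counts were 15 and 6, against 30.0% and 30.3% of all genes. Suclg1 (1.09), a subunit of succinate-CoA ligase, and Dlat (1.02), the second enzyme of the pyruvate dehydrogenase complex, were higher, and Idh2 (-1.47), the mitochondrial isocitrate dehydrogenase, and Pdp2 (-0.69), a phosphatase that reactivates pyruvate dehydrogenase, were lower. Mpc1, a subunit of the mitochondrial pyruvate carrier, was higher in germ cells by 0.94 and fell from 11.5 to 13.5 dpc by 1.40 in XX and 1.41 in XY germ cells. In supporting cells Pdpr, a regulator of the phosphatase that reactivates the complex, was higher in XY by 1.57 at 12.5 dpc and 1.31 at 13.5 dpc, and Pdp2 was lower by -1.0 and -1.12.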

How the data were processed

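RNA of sorted cells was measured on Mouse Gene ST arrays (Affymetrix). The deposited values are log2 expression per probe set. The authors made them with RMA, as the submitters' processing notes say, without a version in the sources used here. They cover 35557 probe sets on 36 arrays, from 3.17 to 15.05. Array number limits the precision.

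A GEO platform annotation named 23410 probe sets, 21789 with 1 symbol and 1621 with several, and 12147 were unnamed here. The identifiers of 21698 matched the RefSeq gene table (GRCm38.p6). Where a gene had several probe sets (999 genes), that with the highest mean was used. Members and lists were chosen with earlier results of these data known. Values are given for members past the test, by size, up to 12 in a direction for the cell types and 8 otherwise, and for up to 2 genes of other lists.

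All 35 arrays entered 1 linear model of 12 group means (limma 3.58.1, R 4.3.3, 23 residual degrees of freedom, empirical Bayes), without a filter on dim genes. Two-sided p-values were adjusted by Benjamini-Hochberg over 19938 genes. SE is the moderated error. The script was tested on simulated data. Row sets were found from the spacing of the values (107 sets, slopes 1.0099 to 1.059). The alternative divides each by its slope and aligns medians, and lowers the median residual SD from 0.249 to 0.137. No 2 arrays were identical, and correlations within groups were 0.967 to 0.995. No batch was given in the sources used here. Tables and plots used Python 3.11.15, numpy 2.4.6, pandas 2.3.3 and matplotlib 3.10.9.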

Additional observations from a re-analysis of the deposited data

Results flagged for a closer look

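These members are listed because a difference between groups itself changed past limma's test. In germ cells the XY minus XX difference of Pfkfb3 changed from 11.5 to 13.5 dpc by 1.63, of Gys1 by 1.38, of Aldoa by 1.07, of Pkm by 0.97 and of Pdk3 by -1.24. In supporting cells that of Pgam2 changed by 2.04, between stages at which the XY cells came from different reporter lines.

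The germ minus supporting difference, as the mean of XX and XY, changed over the same days by -2.53 for Pfkp, -1.48 for Pdk4, -1.15 for Hk2, -1.09 for Slc2a3, -1.04 for Pfkfb2, -0.90 for Pgam2, -0.79 for Pgam1, -0.75 for Aldoa, -0.59 for Pdhb and 0.80 for Ldhb. The XY supporting cells in this comparison came from different reporter lines at 11.5 and 13.5 dpc. The 2 kinds of change listed here share arrays at these stages.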

How the results depend on the processing

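No call of a member reversed in any setting that was run. Putting the left-out germ XX array back ended 24 of 107 calls, array weights 6, quantile normalisation 7, a fit of only the groups compared 11 of 77, the mean of all probe sets 4, aligned row sets 2, centred arrays 1 and omission of dim genes (limit 5.71) 0. Omitting 1 array in turn ended 130 of 1726. The fit of only the groups compared was not run for germ minus supporting, which holds all groups.

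Counts of members past the test moved by more than 1.5 times as follows, with the share of all genes called in that setting in brackets. With row sets aligned there were 8 (8.63%) in XY minus XX supporting cells at 11.5 dpc, 20 (27.7%) at 12.5 dpc and 17 (25.7%) at 13.5 dpc, 8 (10.6%) and 12 (21.9%) in supporting XX and XY over time, and 9 (7.65%) and 3 (6.88% upward and 4.82% downward) in the change of the sex difference in germ and supporting cells. With array weights there were 0 (0.456%) in germ cells at 12.5 dpc, 6 (11.0%) and 27 (30.5%) in supporting cells at 11.5 and 13.5 dpc, 8 (13.8%) and 13 (24.1%) in supporting XX and XY over time, and 8 (8.01%) and 6 (16.7%) in the change of the sex difference in germ and supporting cells. In the fit of only the groups compared there were 20 (21.4%) in supporting cells at 13.5 dpc, and 3 (2.92%) and 2 (8.47%) in the change of the sex difference in germ and supporting cells. With arrays centred there were 3 (3.87%), and with quantile normalisation 4 (4.57%), in supporting cells at 11.5 dpc, and 2 in both (5.06% and 5.44%) for the change of their sex difference. With the left-out array there was 1 (5.95%) in supporting XY over time and 2 (1.41%) in the change of the germ cell sex difference. In the fit as reported the shares were 1.80% in germ cells at 12.5 dpc, 3.32%, 13.4% and 12.2% in supporting cells by stage, 4.10% and 8.87% in supporting XX and XY over time, and 3.24% and 4.26% in the change of the sex difference in germ and supporting cells. The cause of these moves was not tested.

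Leaving out 1 array gave 30 to 31 members for germ minus supporting and 9 to 11 for its change. It gave 0 to 0, 0 to 2 and 7 to 10 for the sexes of germ cells by stage, and 0 to 2, 7 to 10 and 4 to 6 for those of supporting cells. Over time it gave 10 to 14 in germ XX, 4 to 11 in germ XY, 1 to 3 in supporting XX and 1 to 4 in supporting XY cells, and for the change of the sex difference 2 to 6 in germ and 1 to 2 in supporting cells. Where 1 germ XX array at 12.5 dpc remained, it is assumed to vary like the other groups. The shares of all genes called in the fits without 1 array are not given here, so these counts cannot be set against them.

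Quantile normalisation also ended the calls of Tpi1 (-0.52, padj = 0.0552) and Pdk1 (-0.46, padj = 0.1) in germ XX over time, Pkm at 12.5 dpc (0.44, padj = 0.0554) and Ldhb at 13.5 dpc (0.42, padj = 0.1) between the sexes of supporting cells, and Hk2 in supporting XY over time (0.53, padj = 0.114). It moved the germ minus supporting values of Aldoa to -0.64, Pgam1 to -0.54, Pdk3 to 0.37 and Pdhb to 0.29, and the change of Pgam1 to -0.49. The mean of the probe sets ended the calls of Ldhb in supporting XY over time (-0.41, padj = 0.234) and of Pkm in the change of the germ cell sex difference (0.72, padj = 0.119).

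Same-numbered arrays did not deviate together in a way that pairs them: the correlations of their deviations ran from -0.524 to 0.203. With the replicate block, 104 calls were kept and 3 ended, which were Pkm at 12.5 dpc (0.56, padj = 0.0506) and Ldhb at 13.5 dpc (0.57, padj = 0.0555) between the sexes of supporting cells and Pfkl in germ XY over time (-0.61, padj = 0.0559). Read by its RefSeq probe set, Hk1 passed in 6 of the 14 comparisons.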

Other observations

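The pentose phosphate pathway, which makes NADPH and ribose from glucose 6-phosphate, had 12 genes measured, 4 higher and 6 lower in germ than in supporting cells. Of all genes 29.1% were higher and 18.1% lower. Prps2 (-1.97) and Prps1 (-1.76), which make the ribose donor of nucleotides, were lowest in germ cells, and Tktl1 (0.88) and Taldo1 (0.87), a transketolase-like gene and transaldolase, were highest. Tkt, the transketolase, was lower in XY than XX supporting cells by -0.96 at 11.5 dpc, -2.22 at 12.5 dpc and -1.51 at 13.5 dpc, and it fell over time in all 4 series of cells, with -0.82 in germ XX and germ XY, -1.01 in supporting XX and -1.56 in supporting XY cells. Tktl1 rose in germ cells by 1.56 in XX and 0.73 in XY.

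Of 20 measured hypoxia response genes, 3 were higher and 11 lower in germ cells, against 29.1% and 18.1% of all genes. With the row sets aligned 3 were higher and 14 lower, against 30.0% and 30.3%. Egln3, an oxygen-sensing prolyl hydroxylase, was higher by 2.49 and Vegfa, the vascular growth factor, lower by -1.39. Both fell from 11.5 to 13.5 dpc in germ cells, Egln3 by 1.53 in XX and 1.49 in XY and Vegfa by 1.15 and 1.23 (-0.74 in XX with the row sets aligned). In supporting cells Adm, the vessel-relaxing peptide gene, was lower in XY by -2.19, -3.16 and -1.51 at the 3 stages, and the histone demethylase gene Kdm3a by -1.22, -1.84 and -1.88.

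Akr1b8, an aldo-keto reductase of the sorbitol list, was lower in germ cells by -4.09, and higher in XY than XX supporting cells by 1.35, 2.42 and 2.53 at the 3 stages. Gnpnat1, of the hexosamine branch, was higher in germ cells by 1.70 and fell over time in XX germ cells (-1.56). Of 7 measured genes in that list, 4 were higher and 2 lower in germ cells. Of 6 gluconeogenesis genes, 0 were higher and 2 lower, G6pc3 by -0.81 and Pck2 by -0.29, or 1 and 3 with the row sets aligned. Beside both lists, 29.1% of all genes were higher and 18.1% lower in germ cells, or 30.0% and 30.3% with the row sets aligned.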
